A study of Mus musculus with 12 samples.

Results

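The RNAs described here are 9 long noncoding RNAs of the mouse: Malat1, Neat1, Gas5, Snhg1, Snhg12, Kcnq1ot1, Meg3, H19 and Dancr. They were picked by gene symbol from the 56691 genes of the deposited tables, and the choice drew on how Malat1 and Neat1 differed between knockout and control cells. Their knockout differences are therefore described, with no test. RNA was sequenced from cultured 4T1 and EMT6 cells, a pair of transplantable mouse mammary carcinoma lines. Each line was profiled as sgNEDD4 KO cells, in which a guide RNA was directed at the ubiquitin ligase gene Nedd4, and as control cells labelled WT, with 3 libraries in each of the 4 groups. Whether the KO cells were 1 clone or a pool, where the guide lies, and whether replicate libraries derive from separate cultures is not stated in the labels, so errors and p-values measure the spread between libraries, which may be technical.

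Long noncoding RNAs act without being translated. Malat1 collects in nuclear speckles, bodies rich in splicing factors, and Neat1 is the RNA scaffold of paraspeckles, which form where it is transcribed. Gas5, Snhg1, Snhg12 and Dancr carry small nucleolar RNAs (snoRNAs) in their introns; the spliced host RNA is commonly degraded by nonsense-mediated decay as it is translated, and Gas5 was found as a transcript that accumulates in growth-arrested cells. Kcnq1ot1, H19 and Meg3 are transcribed from imprinted clusters, where only the copy from one parent is active, and Kcnq1ot1 silences neighbouring genes on its own chromosome. The library kit captured mRNA on beads, which as a rule bind poly(A) tails. The mature end of Malat1 and of the long Neat1 isoform is a triple helix in place of such a tail, so the levels of both are those of the captured RNA.

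The start-site windows of 3 snoRNA hosts and of Malat1 are shown because hosts of this kind are known to begin, like the mRNAs of ribosomal proteins, with a terminal oligopyrimidine tract, a run of C and T at the first base that ties translation to growth signals. Each window spans 60 bases before the start site and 30 from it on, taken from RefSeq on GRCm38.p6, which held promoters of 7 of the 9 genes. Capitals mark 3 features: the letters TATATA, the palindrome TGACGTCA, which is the full cyclic AMP response element, and a tract of C followed by at least 4 C or T that begins within 2 bases of the start site. The windows lie at chr1:161035106-161035195 (plus strand, the downstream of 2 Gas5 start sites), chr4:132308618-132308707 (plus), chr19:8723427-8723516 (plus) and chr19:5802643-5802732 (minus).
Gas5: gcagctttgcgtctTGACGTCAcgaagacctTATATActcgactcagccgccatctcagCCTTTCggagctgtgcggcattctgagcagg
Snhg12: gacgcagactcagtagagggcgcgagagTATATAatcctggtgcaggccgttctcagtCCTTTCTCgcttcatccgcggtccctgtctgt
Snhg1: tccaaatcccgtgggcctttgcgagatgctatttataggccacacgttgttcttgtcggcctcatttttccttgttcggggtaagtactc
Malat1: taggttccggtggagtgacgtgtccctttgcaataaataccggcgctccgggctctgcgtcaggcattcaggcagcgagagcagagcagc

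The downstream start site of Gas5 and that of Snhg12 shared a TATATA, beginning 29 and 32 bases before the start, and a pyrimidine tract at the start of 6 and 8 bases. The tract by this rule was present in 7.18% of 32851 RefSeq promoters, and a TATATA beginning 20 to 40 bases upstream in 0.95%. This Gas5 start site also held TGACGTCA 46 bases upstream, a sequence found in 1.79% of promoters of 300 bases, and 1 of 2 start sites of the imprinted Meg3 held both TATATA and TGACGTCA. The windows of Snhg1, Malat1, Kcnq1ot1 and Dancr, and of the other Gas5 and Meg3 start sites, held none of these features. Only exact matches were sought, so the tatttata of the Snhg1 window and the cctca at its start were not marked. CACGTG, the E-box bound by MYC, which 7.15% of promoters hold, was in none of the 7. All 3 words read the same on both strands, the tract was sought on the transcribed strand only, and the features were chosen with the sequences in view.

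The libraries held 13705612 to 19761604 counts, at which 3 counts correspond to 0.152 to 0.219 CPM (a count scaled to the total of its library). Nedd4 fell in the KO cells of both lines, to a mean of 315 ± 3.72 CPM in 4T1 KO cells against 1199 ± 26.9 CPM in 4T1 control cells, and to 150 ± 4.62 CPM in EMT6 KO cells against 1514 ± 40.2 CPM in EMT6 control cells (SD, n = 3 each). Its log2 differences were -2.01 ± 0.04 and -3.34 ± 0.06 (edgeR, adjusted p = 6.19e-21 and 5.6e-16). Of the epithelial markers, Cdh1 was at 640 to 672 CPM in 4T1 KO and 616 to 632 CPM in 4T1 control libraries but at most 0.104 CPM in EMT6, and Epcam was at most 2.73 CPM there, whereas Krt8 stood at 672 to 706 CPM in EMT6 KO and 534 to 648 CPM in EMT6 control libraries. Of the fibroblast markers, Lum had no counts in any library, but Pdgfra stood at 44.1 to 58.8 CPM over the 12 libraries and Col1a1 at 1241 to 1449 CPM in EMT6 KO and 995 to 1134 CPM in EMT6 control libraries. The T-cell marker Cd3e had no counts, while the monocyte markers Cd14 and Cd68 stood at 8.38 to 27.3 CPM. Genes with at least 1 count numbered 20937 to 21264 in 4T1 KO libraries against 18836 to 19017 in 4T1 control libraries, and 18119 to 18371 in EMT6 KO libraries against 18014 to 18833 in EMT6 control libraries. A pair of control libraries stood apart in the RNAs described here. EMT6 control 1 was the highest of its group for Malat1, Neat1, Gas5, Kcnq1ot1 and Dancr, and 4T1 control 3 was the highest of its group for all of the 7 expressed RNAs except Kcnq1ot1. Values without them are given beside several of the results they touch.

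Malat1 was higher in every 4T1 KO library than in any 4T1 control library. It stood at 479, 489 and 560 CPM in the 3 KO libraries against 69.3, 83.5 and 155 CPM in the 3 controls, of which control 3 was well above the other two. The KO mean was 4.96 times the control mean, and single pairs of libraries gave ratios of 3.09 to 8.08. In EMT6, Malat1 stood at 158, 200 and 178 CPM in KO libraries against 450, 189 and 213 CPM in controls. The EMT6 groups overlapped, and KO libraries were far below control 1 but not control 2 or 3. In bulk RNA, a transcript in fewer cells and less of it per cell cannot be told apart.

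Neat1 was higher in KO cells of 4T1 and lower in KO cells of EMT6, with no overlap between groups in either line. In 4T1 it stood at 241, 333 and 301 CPM in KO libraries against 51.6, 59.3 and 84.6 CPM in controls, so the KO mean was 4.47 times the control mean. In EMT6 it stood at 28.2, 31.4 and 36.1 CPM in KO libraries against 138, 66.8 and 92.9 CPM in controls, and the KO mean was 0.321 times the control mean. The smallest gap between the EMT6 groups, between KO 3 and control 2, was a ratio of 0.541. The balance of these adjacent genes also differed in EMT6: Malat1 had 4.93 to 6.38 times as many counts as Neat1 in EMT6 KO libraries against 2.29 to 3.25 times in EMT6 controls. In 4T1 the same ratio was 1.47 to 1.99 in KO libraries and 1.34 to 1.83 in controls, which overlap.

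**Figure D1:**
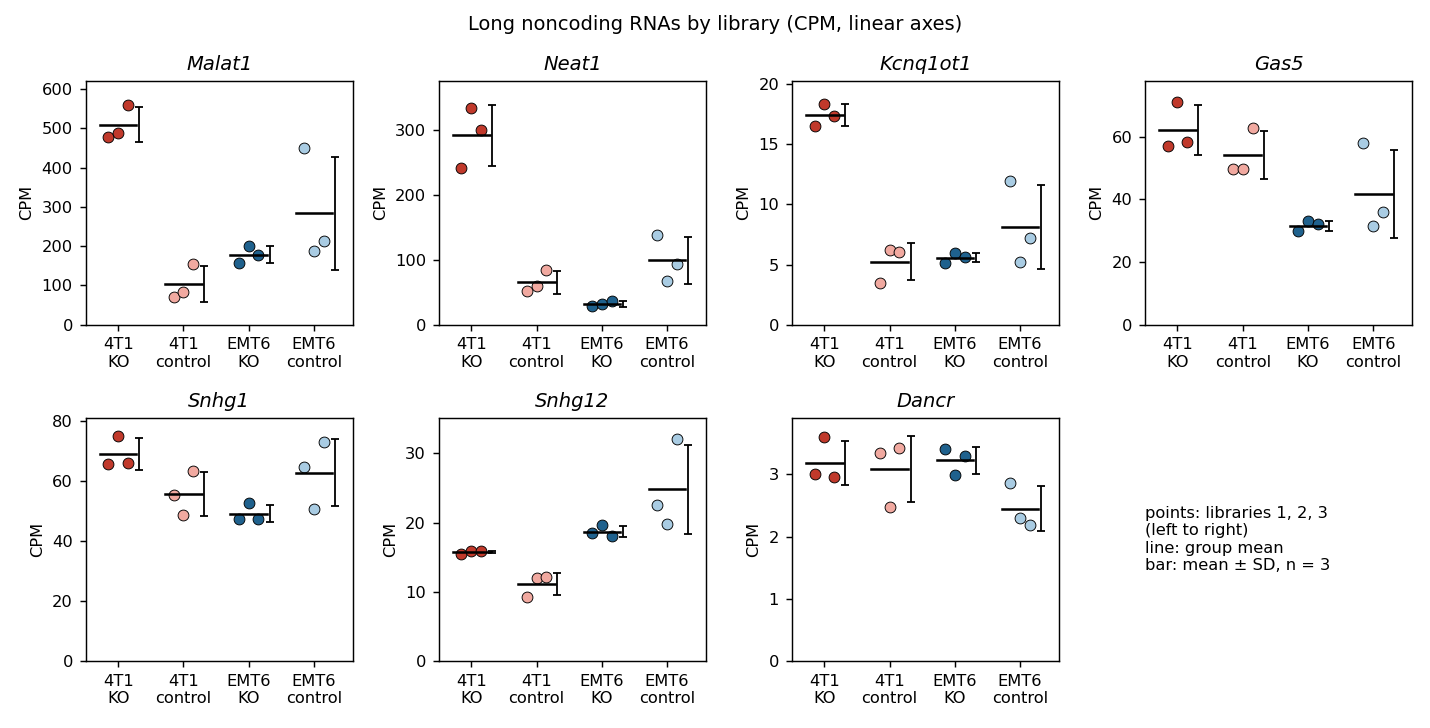
CPM of the 7 expressed RNAs in each of the 12 libraries (points, linear axes from 0), with KO left of control in each line, the group mean (line) and mean ± SD (bar, n = 3). Malat1, Neat1 and Kcnq1ot1 separate the 4T1 groups widely, Neat1 also separates the EMT6 groups in the opposite direction, and EMT6 control 1 is the highest point of its group for Malat1 (450 CPM), Neat1 (138 CPM), Gas5 (57.9 CPM) and Kcnq1ot1 (12 CPM).

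Among the imprinted RNAs, only Kcnq1ot1 was expressed enough to compare. It stood at 16.5, 18.3 and 17.4 CPM in 4T1 KO libraries against 3.47, 6.21 and 6.06 CPM in 4T1 controls, and every KO library was at least 2.66 times any control. In EMT6 it stood at 5.15, 5.92 and 5.59 CPM in KO libraries against 12, 5.20 and 7.19 CPM in controls, and the groups overlapped. H19, an RNA abundant in embryonic tissue, had 2, 5 and 3 counts in 4T1 KO libraries against 6, 3 and 4 in 4T1 controls and none in EMT6, where 3 counts would be 0.152 to 0.210 CPM. Meg3 had 3 counts in EMT6 control 1 and none in the other 11 libraries. H19 and Meg3 did not pass the filter on low counts in any comparison, and a knockout difference was not detectable for either at this depth. With no filter, the edgeR test called H19 higher in 4T1 controls (13 counts in all) than in EMT6 controls (0 counts).

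The snoRNA hosts differed less. Snhg12 stood at 15.5, 15.8 and 15.8 CPM in 4T1 KO libraries against 9.29, 12 and 12.1 CPM in 4T1 controls, which do not overlap. In EMT6 it stood at 18.4, 19.6 and 18.0 CPM in KO libraries against 22.5, 19.8 and 32 CPM in controls, and the gap between KO 2 and control 2 was a ratio of 0.992. The EMT6 groups of Snhg12 thus hardly separated, and control 3 was the high one. Snhg1 stood at 65.8, 75.0 and 66.0 CPM in 4T1 KO libraries against 55.2, 48.8 and 63.4 CPM in 4T1 controls, and at 47.5, 52.6 and 47.5 CPM in EMT6 KO libraries against 64.8, 50.8 and 72.9 CPM in EMT6 controls. Its 4T1 groups were apart by little and its EMT6 groups overlapped.

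Gas5 and Dancr overlapped or nearly overlapped between groups. Gas5 stood at 56.9, 71.1 and 58.2 CPM in 4T1 KO libraries against 49.6, 49.5 and 62.9 CPM in 4T1 controls, and at 29.8, 32.9 and 32 CPM in EMT6 KO libraries against 57.9, 31.4 and 35.8 CPM in EMT6 controls. Dancr, which in human cells is known to keep progenitors undifferentiated, had 51 to 59 counts in 4T1 KO libraries against 37 to 54 in 4T1 controls. In EMT6 it had 52 to 66 counts in KO libraries against 41 to 42 in controls, or 2.99 to 3.40 CPM against 2.19 to 2.87 CPM. Dancr was the sole RNA of the 9 whose EMT6 KO libraries all lay above the EMT6 controls.

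The edgeR fit, which scales libraries by TMM, gave log2 differences of KO over control that summarise these values. In 4T1 they were 2.24 ± 0.34 for Malat1, 2.09 ± 0.24 for Neat1, 1.66 ± 0.15 for Kcnq1ot1, 0.43 ± 0.11 for Snhg12, 0.23 ± 0.07 for Snhg1, 0.13 ± 0.11 for Gas5 and -0.03 ± 0.21 for Dancr (SE, n = 3 per group). Of 13313 genes tested in 4T1, 101 had a larger increase than Malat1 and 128 a larger one than Neat1. In EMT6 the differences were -1.63 ± 0.32 for Neat1, -0.66 ± 0.40 for Malat1, -0.52 ± 0.25 for Kcnq1ot1, -0.41 ± 0.15 for Snhg12, -0.38 ± 0.24 for Gas5, -0.35 ± 0.11 for Snhg1 and 0.41 ± 0.22 for Dancr. Single libraries set the size of several of these. Without EMT6 control 1 the EMT6 difference was -1.33 for Neat1, -0.17 for Malat1, -0.16 for Kcnq1ot1 and -0.09 for Gas5, and without EMT6 control 3 it was -0.18 for Snhg12 and -0.23 for Snhg1. In 4T1, leaving out control 3 gave 2.64 for Malat1 and 2.30 for Neat1, and 0.23 for Gas5, whose value was 0.02 without KO 2.

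**Figure D2:**
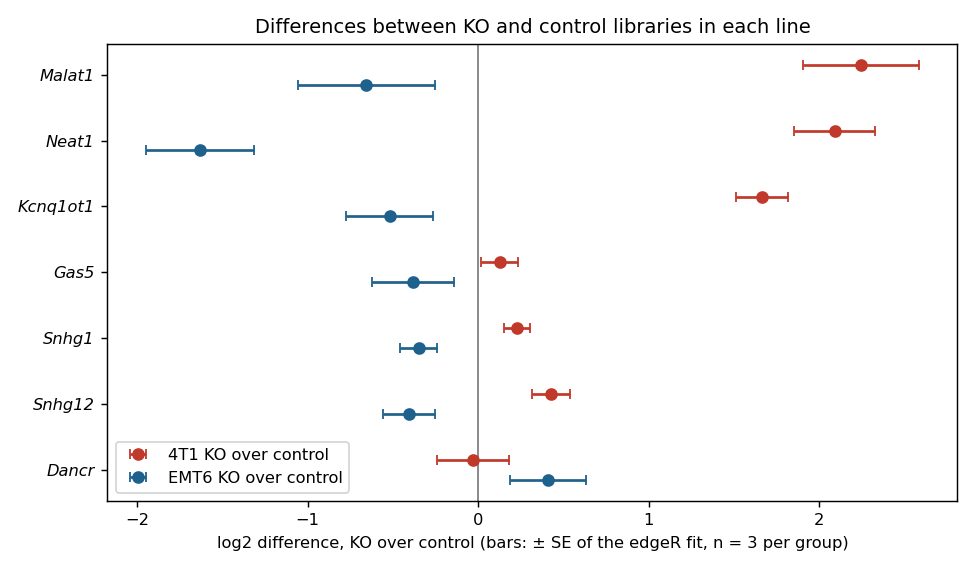
Log2 difference of KO over control (x axis) for the 7 expressed RNAs in 4T1 and in EMT6 from the edgeR fits, with bars of ± SE (n = 3 per group). In 4T1, Malat1 (2.24), Neat1 (2.09) and Kcnq1ot1 (1.66) lie far to the right, while in EMT6 all but Dancr (0.41) lie left of 0, with Neat1 at -1.63.

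Of the 7 that passed the filter, 5 (Malat1, Neat1, Kcnq1ot1, Snhg12 and Snhg1) had 4T1 KO libraries all above the 4T1 controls, as did 37.6% of all genes tested, none had them all below (24.3% of genes), and 2 overlapped. In EMT6, 2 of 7 (Neat1 and Snhg12) had KO libraries all below the controls (31.3% of genes), 1 had them all above (31.3%), and 4 overlapped. The knockout contrasts chose these RNAs, so nothing is read from these counts.

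Per length, in the deposited FPKM, the order of the RNAs differed between groups. Malat1 led in 4T1 KO libraries (72.9 ± 6.35 FPKM), ahead of Snhg1 (22.9 ± 1.75), Gas5 (15.5 ± 1.96) and Neat1 (13.8 ± 2.22), and Gas5 and Neat1 were within their spread. In 4T1 controls Snhg1 (18.5 ± 2.43), Malat1 (14.7 ± 6.57) and Gas5 (13.5 ± 1.92) were not separated, and Neat1 (3.08 ± 0.817) was close to Snhg12 (3.93 ± 0.561). In EMT6 KO libraries the order ran Malat1 (25.6 ± 3.03), Snhg1 (16.3 ± 0.976), Gas5 (7.90 ± 0.395), Snhg12 (6.61 ± 0.295) and then Neat1 (1.51 ± 0.191) beside Dancr (1.36 ± 0.0889). The means of EMT6 controls kept that order, with Malat1 at 40.6 ± 20.6, Snhg1 at 20.9 ± 3.71, Gas5 at 10.4 ± 3.54, Snhg12 at 8.74 ± 2.26, Neat1 at 4.70 ± 1.71 and Dancr at 1.03 ± 0.155 FPKM (SD, n = 3). Gas5 and Snhg12 were within their spread there, and in EMT6 control 3 Snhg12 (11.3 FPKM) lay above Gas5 (8.95 FPKM). Kcnq1ot1, spread over 93092 bases, stayed at 0.04 to 0.20 FPKM. For 7 of the 9 the deposited exonic size equals the whole span of the gene. For the spliced hosts Snhg1, Snhg12 and Dancr that span includes introns, which lowers their FPKM.

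The control cells of the lines differed in 3 of the 7. The choice did not use this contrast itself but drew on the same control libraries. The p-values given here are therefore not independent of the choice. In 4T1 controls against EMT6 controls Malat1 was lower by a log2 of -1.49 ± 0.38 (edgeR quasi-likelihood test, Benjamini-Hochberg adjusted p = 0.00679, n = 3 each) and Snhg12 by -1.19 ± 0.14 (adjusted p = 1.59e-07), with no overlap for either. The Malat1 difference was -1.01 without EMT6 control 1 and -1.89 without 4T1 control 3. Kcnq1ot1 was lower by -0.63 ± 0.26 at an edgeR adjusted p of 0.0437, but its groups overlapped and the adjusted p was 0.191 without EMT6 control 1. Of all genes, 37.6% were called lower in this contrast, 37.2% higher and 74.7% in either direction, so 3 of 7 called lower is near the background. Neat1 (-0.63 ± 0.28, edgeR adjusted p = 0.0708), Gas5 (0.36 ± 0.21, adjusted p = 0.146), Snhg1 (-0.20 ± 0.11, adjusted p = 0.128) and Dancr (0.31 ± 0.22, adjusted p = 0.19) did not pass. Without EMT6 control 1 the difference was -0.33 for Neat1 and 0.65 for Gas5 (edgeR adjusted p = 6.66e-06 for Gas5). That was the lowest adjusted p of Gas5 on leaving out single libraries, where it reached 0.393. Gas5 was called in 1 of 17 alternatives.

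Some other measures of the libraries moved with these RNAs, and others did not. The summed level of all other lncRNA genes was 5503 to 5737 CPM in 4T1 KO libraries against 4418 to 4690 CPM in 4T1 controls, highest in control 3. In EMT6 it was 4606 to 4648 CPM in KO libraries against 4376 to 5192 CPM in controls, highest in control 1. Among the controls of each line, genes with a count ranked the libraries in the same order as this sum, with 19017 in 4T1 control 3 and 18833 in EMT6 control 1. Mitochondrial reads were 2.25% to 2.83% in 4T1 KO libraries against 2.2% to 3.64% in 4T1 controls, and 1.09% to 1.29% in EMT6 KO libraries against 1.26% to 1.88% in EMT6 controls. The highest EMT6 value was again in control 1, but 4T1 control 3 had the lowest of its group (2.2%). Summed leukocyte markers (8 genes) were 38.7 to 42.3 CPM in 4T1 KO against 39.2 to 42.7 CPM in 4T1 control libraries, and 29.2 to 31.7 CPM in EMT6 KO against 42.7 to 51.4 CPM in EMT6 control libraries, with Ptprc, Itgam and Adgre1 at 0 throughout EMT6. These sums hold opposite changes. In 4T1, Cd14 was at 13.6 to 14.4 CPM in KO against 21.6 to 23.8 CPM in control libraries, and Cd68 at 21.8 to 26.3 against 13.0 to 15.5 CPM. In EMT6, Cd68 was at 8.38 to 10.6 CPM in KO against 22.3 to 27.3 CPM in control libraries, and Csf1r at 5.41 to 6.38 against 2.30 to 3.33 CPM. Summed epithelial markers (5 genes) were 3000 to 3132 CPM in 4T1 KO against 3899 to 4048 CPM in 4T1 control libraries, and 727 to 755 CPM in EMT6 KO against 663 to 784 CPM in EMT6 control libraries. The EMT6 sum is mostly Krt8. Krt18 was at 44.3 to 48.3 CPM in EMT6 KO against 104 to 116 CPM in EMT6 control libraries, and Krt7 at 4.22 to 5.57 against 16.9 to 21.8 CPM. In 4T1, Krt8, Krt18 and Epcam fell with the sum, while Cdh1 and Krt7 did not. Summed fibroblast markers (4 genes) were 51.9 to 54 CPM in 4T1 KO against 48.4 to 58 CPM in 4T1 control libraries, and 1289 to 1503 CPM in EMT6 KO against 1047 to 1190 CPM in EMT6 control libraries. The mesenchymal markers (3 genes), of which Cdh2 was at or near 0, summed to 7040 to 7339 CPM in 4T1 KO against 7086 to 8070 CPM in 4T1 control libraries, and to 8137 to 8560 CPM in EMT6 KO against 5270 to 5608 CPM in EMT6 control libraries. In 4T1, Vim was at 2636 to 2785 CPM in KO against 2279 to 2487 CPM in control libraries, and Fn1 at 4254 to 4703 against 4807 to 5774 CPM. Endothelial markers (4 genes) summed to at most 3.07 CPM in any library. Ribosomal protein genes took 1.78% to 1.92% of counts in 4T1 KO against 1.74% to 1.9% in 4T1 control libraries, and 1.85% to 1.89% in EMT6 KO against 2.1% to 2.25% in EMT6 control libraries. The part of these measures in the differences was not tested.

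**Figure D3:**
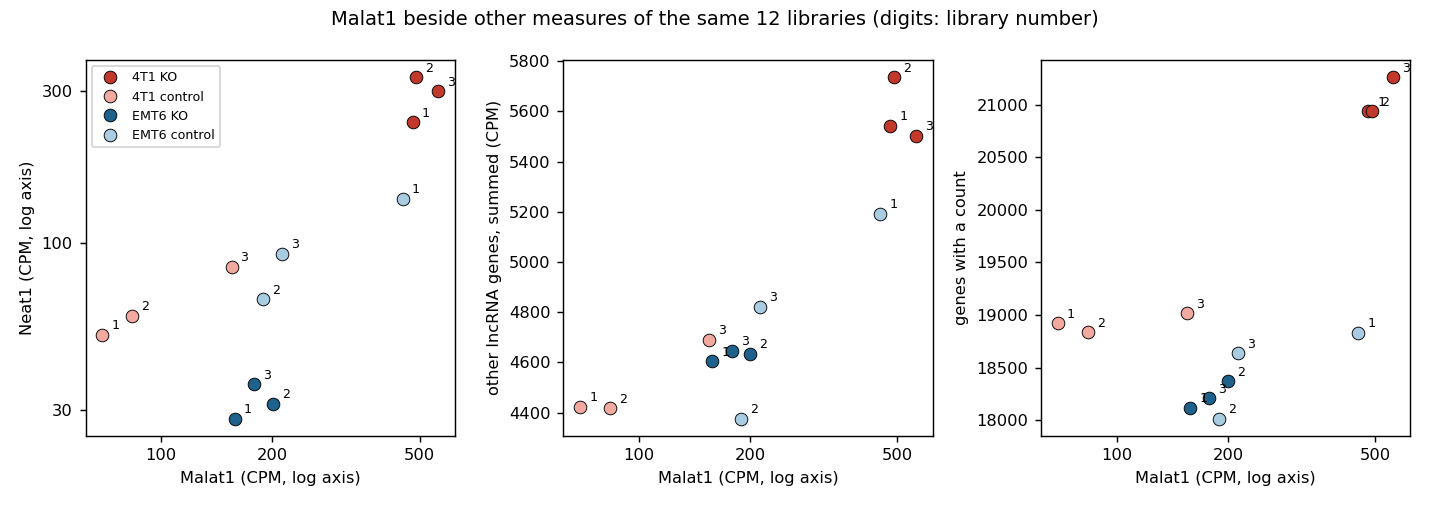
Malat1 CPM of each library (x axis, log scale) beside its Neat1 CPM (left, log scale), the summed CPM of lncRNA genes other than the 9 (middle) and the number of genes with a count (right), with digits giving the library number. The 4T1 KO libraries (479 to 560 CPM of Malat1) lie at the upper right of each panel, and EMT6 control 1 (450 CPM) is the control nearest to them in the left and middle panels.

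Genes whose level followed these RNAs most closely over the 12 libraries were found by Pearson correlation of log2(CPM + 1) over the 9508 genes that averaged 10 CPM or more, as a description of libraries that fall into 4 groups. Closest to Malat1 were Gabbr1, a subunit of the GABA-B receptor (r = 0.967), the Polycomb partner Phf1 (r = 0.953) and Ankrd16 (r = 0.94). Closest to Neat1 were Rrnad1 (r = 0.978), the palmitoyltransferase Zdhhc1 (r = 0.977) and the ubiquitin ligase Dtx3 (r = 0.974). Closest to Gas5 were Arglu1, a splicing-associated protein (r = 0.947), the recombination gene Xrcc3 (r = 0.938) and Sbno2 (r = 0.936). Arglu1 shows the shape: 117 to 131 CPM in 4T1 KO and 83.3 to 103 CPM in 4T1 control libraries, and 50.2 to 56.6 CPM in EMT6 KO and 57.3 to 83.9 CPM in EMT6 control libraries, with control 1 highest in EMT6 and control 3 highest in 4T1.

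The protein-coding gene beside Neat1 did not share its difference in EMT6. Neat1 lies 22031 bases from Malat1 on the minus strand of chromosome 19, beside Frmd8. Frmd8, 3831 bases beyond Neat1, rose by a log2 of 0.59 ± 0.07 in EMT6 KO cells (edgeR adjusted p = 3.86e-06), where Neat1 was lower, and by 0.16 ± 0.06 in 4T1 (adjusted p = 0.0243), a call lost without KO 2, KO 3, control 1 or control 2, with no low-count filter (0.141) and with DESeq2 (0.0531).

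At Snhg1 the nearer neighbour rose in 4T1 KO cells and fell in EMT6 KO cells. Slc3a2, the heavy chain of the CD98 amino acid transporter, begins 67 bases from Snhg1 on the opposite strand. It stood at 196 to 224 CPM in 4T1 KO libraries against 144 to 152 CPM in 4T1 controls, and at 437 to 501 CPM in EMT6 KO libraries against 740 to 918 CPM in EMT6 controls. It rose in 4T1 KO cells by 0.46 ± 0.05 (edgeR adjusted p = 2.71e-08) and fell in EMT6 KO cells by 0.77 ± 0.08 (adjusted p = 1.42e-06), where Snhg1 was at 0.23 and -0.35. On the other side of Snhg1, Wdr74 fell in 4T1 by 0.48 ± 0.06 (edgeR adjusted p = 6.92e-07), and Rc3h1, which lies beside Gas5 and encodes the RNA-binding protein Roquin, fell in 4T1 by 0.35 ± 0.07 (adjusted p = 0.000215) and rose in EMT6 by 0.70 ± 0.06 (adjusted p = 8.84e-08). Trnau1ap, 311 bases from Snhg12, was at -0.01 ± 0.08 in 4T1 (edgeR adjusted p = 0.94) and 0.02 ± 0.08 in EMT6 (adjusted p = 0.831). The strand setting of the counting is not stated, so reads of overlapping opposite-strand genes cannot be told apart: Zbtb37 overlaps Gas5 with 155 to 265 counts a library, Kcnq1 overlaps Kcnq1ot1 with 0 to 19, and Frmd8os overlaps Neat1 with 0 to 12. The snoRNA genes inside Gas5 (9), Snhg1 (8), Snhg12 (4) and Dancr (1) had 0 counts in all libraries, so the snoRNAs themselves were not measured.

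Other noncoding snoRNA hosts split between the lines. Over all genes tested, 28% rose and 29% fell in 4T1 KO cells (57% called in either direction), and 27.9% rose and 28.2% fell in EMT6 KO cells (56% in either direction), and the gene lists that follow are read against these shares. Of 16 hosts listed, 10 were tested in each line: 5 rose and 0 fell in 4T1 KO cells (median log2 0.37, against 0.00 over all genes), while 1 rose and 5 fell in EMT6 KO cells (median -0.48, against 0.00). Zfas1 stood at 26.6 to 30.5 CPM in 4T1 KO libraries against 15.7 to 23.1 CPM in 4T1 controls, and at 31.6 to 33.9 CPM in EMT6 KO libraries against 35.4 to 45.5 CPM in EMT6 controls. It rose in 4T1 by 0.56 ± 0.11 (edgeR adjusted p = 0.000219) and fell in EMT6 by 0.34 ± 0.09 (adjusted p = 0.00339). Snhg8 rose in 4T1 by 0.49 ± 0.11 (edgeR adjusted p = 0.000485), and Snhg15 fell in EMT6 by 0.90 ± 0.12 (adjusted p = 8.78e-06). Snhg17 rose in 4T1 by 0.69 ± 0.17 (edgeR adjusted p = 0.0147, lost without KO 1 or control 2, and at an adjusted p of 0.106 with the replicate number as a block) and fell in EMT6 by 0.65 ± 0.10 (adjusted p = 2.86e-05). The EMT6 difference was below that of 4T1 for 7 of 11 hosts and above it for 0 in the interaction test, which called 53.4% of all genes. The count in 4T1 was 4 to 7 and in EMT6 5 to 7 on leaving out single libraries, with 7 higher in 4T1 without control 3.

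**Figure D4:**
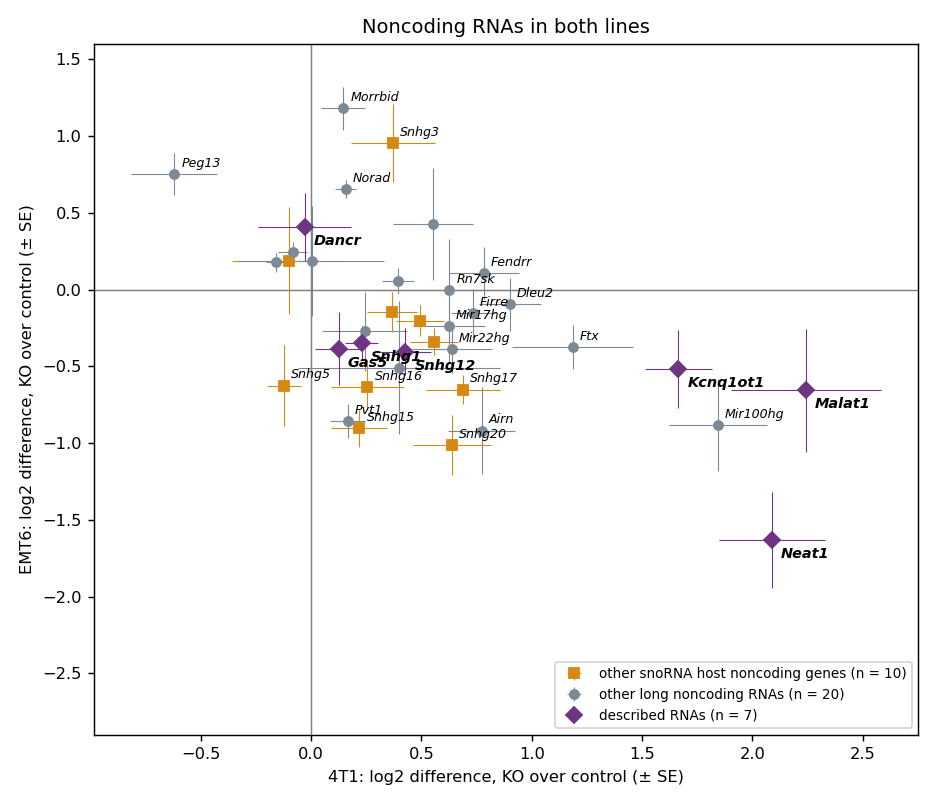
Log2 difference of KO over control in 4T1 (x axis) and in EMT6 (y axis), each ± SE, for the 7 expressed RNAs (diamonds), 10 other snoRNA hosts (squares) and the 20 other lncRNAs tested in both lines (circles). Most points lie right of 0 in 4T1 and below 0 in EMT6, with Malat1, Neat1, Kcnq1ot1 and Mir100hg (1.84 and -0.88) at the lower right.

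Among other long noncoding RNAs, 12 rose and 2 fell of 23 tested in 4T1 KO cells (median 0.55), and 5 rose and 6 fell of 23 in EMT6 KO cells (median -0.10). In all, 14 of 23 were called in 4T1, against 57% of all genes, and 11 of 23 in EMT6, against 56%, while 28% of all genes rose in 4T1. Firre, which anchors chromatin in the nucleus, rose in 4T1 by 0.73 ± 0.10 (edgeR adjusted p = 1.91e-06), and Dleu2, host of miR-15a and miR-16-1, by 0.90 ± 0.14 (adjusted p = 8.35e-06). In EMT6 Norad, which binds Pumilio proteins, rose by 0.66 ± 0.06 (edgeR adjusted p = 8.6e-08) and Morrbid by 1.18 ± 0.14 (adjusted p = 2.24e-06). Norad also rose in 4T1, by 0.16 ± 0.05 (edgeR adjusted p = 0.00768, lost without KO 1 or control 1). Mir100hg, named after its values were seen, stood at 364 to 422 CPM in 4T1 KO libraries against 82.5 to 137 CPM in 4T1 controls.

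Most core proteins of the particles that snoRNAs form fell in 4T1. Of 8, 7 fell in 4T1 KO cells (median -0.44) and 0 rose, led by Nop56 (-0.87 ± 0.05, edgeR adjusted p = 1.05e-13) and Nop58 (-0.69 ± 0.05, adjusted p = 5.91e-12), scaffold proteins of methylating particles. Of all genes, 29% fell in 4T1. In EMT6 KO cells 2 rose and 2 fell (median -0.02), and Nop56 (-0.38 ± 0.07, edgeR adjusted p = 0.000152) and Gar1 of pseudouridylating particles (-0.40 ± 0.07, adjusted p = 0.000161) were those that fell. The 2 that rose in EMT6 were 0 without EMT6 KO 2 and 1 without KO 1.

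Paraspeckle proteins fell for 10 of 20 and rose for 1 in 4T1 KO cells (median -0.15), where Neat1 was high, and rose for 9 and fell for 2 in EMT6 KO cells (median 0.13). The total of 11 called of 20 in each line is near the 57% and 56% of all genes called. Pspc1, a core paraspeckle protein, fell in both lines, by 0.66 ± 0.06 in 4T1 (edgeR adjusted p = 4.26e-09) and 0.65 ± 0.08 in EMT6 (adjusted p = 3.25e-06). Hnrnpm fell in 4T1 by 0.55 ± 0.05 (edgeR adjusted p = 5.79e-09) and rose in EMT6 by 0.25 ± 0.05 (adjusted p = 0.000647). Rbmx, a nuclear RNA-binding protein with a near-identical retrocopy that may share its reads, rose in EMT6 by 2.50 ± 0.09 (edgeR adjusted p = 2.58e-12), to 49.6 to 54.6 CPM in KO libraries against 8.28 to 10.2 CPM in controls. Nuclear speckle proteins rose for 3 and fell for 9 of 15 in 4T1 (median -0.21) and rose for 3 and fell for 6 in EMT6 (median -0.07), or 12 called of 15 in 4T1, against 57% of all genes, and 9 of 15 in EMT6, near the 56% of all genes. The splicing factor Srsf2 fell in 4T1 by 0.59 ± 0.06 (edgeR adjusted p = 6.23e-08) and rose in EMT6 by 0.45 ± 0.05 (adjusted p = 2.09e-06), and Srsf1 fell in 4T1 by 0.54 ± 0.05 (adjusted p = 1.95e-09). Of the kinases that phosphorylate such factors, Clk1 fell in 4T1 by 0.63 ± 0.06 (edgeR adjusted p = 1.89e-09) and also in EMT6 (-0.34 ± 0.08, adjusted p = 0.00155). Clk4 fell in EMT6 by 0.92 ± 0.09 (edgeR adjusted p = 3.71e-07).

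Factors of nonsense-mediated decay, the route that degrades many snoRNA hosts, rose for 3 and fell for 7 of 15 in 4T1 KO cells (median -0.12), and rose for 2 and fell for 7 in EMT6 KO cells (median -0.13), where the 2 were 0 without EMT6 KO 2 and 1 without KO 1, KO 3 or control 2. In all, 10 of 15 were called in 4T1, against 57% of all genes, and 9 of 15 in EMT6, against 56%. The endonuclease Smg6 fell in 4T1 by 0.93 ± 0.06 (edgeR adjusted p = 4.35e-12) and in EMT6 by 0.65 ± 0.06 (adjusted p = 2.12e-07). Of the exon junction proteins, Eif4a3 fell in 4T1 by 0.51 ± 0.05 (edgeR adjusted p = 1.5e-09) and also in EMT6 (-0.24 ± 0.05, adjusted p = 0.000935). Rbm8a fell in EMT6 by 0.36 ± 0.05 (edgeR adjusted p = 3.36e-05). The 5′ TOP mRNAs other than those of ribosomal proteins rose for 2 and fell for 9 of 16 in 4T1 (median -0.12; 5 lower when scaled by total counts) and fell for 11 of 16, with 0 higher, in EMT6 (median -0.24), where 29% of all genes fell in 4T1 and 28.2% in EMT6. Npm1, a nucleolar chaperone, fell in both, by 0.71 ± 0.04 in 4T1 (edgeR adjusted p = 4.44e-13) and 0.47 ± 0.06 in EMT6 (adjusted p = 2.94e-06). The poly(A)-binding Pabpc1 fell in 4T1 by 0.32 ± 0.04 (edgeR adjusted p = 6.16e-07) and also in EMT6 (-0.46 ± 0.06, adjusted p = 1.28e-05). The translation factor Eif4b fell in EMT6 by 0.61 ± 0.05 (edgeR adjusted p = 7.83e-08) and rose in 4T1 by 0.21 ± 0.04 (adjusted p = 0.000157). Npm1 and Pabpc1 have processed copies that may share their reads.

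In the imprinted clusters of H19, Kcnq1ot1 and Meg3, 1 gene rose and 3 fell of 7 tested in 4T1, and 2 rose and 1 fell of 5 tested in EMT6, where 3 fell without EMT6 control 1. The 4 of 7 and 3 of 5 called are near the 57% and 56% of all genes called. Phlda2, a growth-restraining gene that Kcnq1ot1 is known to silence in the placenta, fell in both lines: it stood at 16.8 to 19.6 CPM in 4T1 KO against 28.9 to 33.7 CPM in 4T1 control libraries (log2 -0.92 ± 0.09, edgeR adjusted p = 5.53e-09). In EMT6 it stood at 0.759 to 1.49 CPM in KO against 5.31 to 8.26 CPM in control libraries (-2.42 ± 0.27, edgeR adjusted p = 1.32e-06). Kcnq1ot1 itself was higher in KO cells of 4T1 and overlapped in EMT6. The tetraspanin gene Cd81 rose in 4T1 by 0.25 ± 0.04 (edgeR adjusted p = 3.84e-05), and the sterol carrier gene Osbpl5 rose in EMT6 by 0.43 ± 0.07 (adjusted p = 5.84e-05). Igf2 and Dlk1, the protein-coding partners of H19 and Meg3, had no counts in any library.

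Beside Kcnq1ot1, Slc22a18 fell in 4T1 by 0.61 ± 0.19 (edgeR adjusted p = 0.00981), a call lost without KO 1 or control 3, and Tssc4 was at 0.09 ± 0.08 in 4T1 (adjusted p = 0.365) and rose in EMT6 by 0.33 ± 0.10 (adjusted p = 0.00928). Beside Dancr, Usp46 fell in 4T1 by 0.29 ± 0.07 (edgeR adjusted p = 0.00075) and rose in EMT6 by 0.49 ± 0.08 (adjusted p = 7.53e-05). Rasl11b fell in 4T1 by 0.88 ± 0.34 (edgeR adjusted p = 0.0283, lost without KO 2, KO 3, control 2 or control 3 and, at 0.0781, with DESeq2), and Scfd2, the nearest tested gene on that side in EMT6, rose there by 0.46 ± 0.16 (adjusted p = 0.0204, lost without KO 1, KO 3 or control 1). In 4T1, Scfd2 went the other way, at -0.79 ± 0.18 (edgeR adjusted p = 0.000832). Taf12, beside Snhg12, was at 0.08 ± 0.07 in 4T1 (edgeR adjusted p = 0.316) and rose in EMT6 by 0.38 ± 0.08 (adjusted p = 0.000729).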

How the data were processed

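The deposited tables give, per gene and library, raw counts and FPKM, which the authors scaled by exonic gene size and counted reads per the file headers; recomputed FPKM matched all 680292 deposited FPKM within 0.0051. Per the submitters' processing notes, cutadapt 1.9.1, HISAT2 2.2.1, HTSeq 0.6.1, DESeq2 and the build GRCm38 were used, with roles and strand setting not given in the sources used here. Gene positions in the deposited tables do not match GRCm38 annotation, so only distances from them are printed.

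CPM are counts over total counts. Counts were compared in R 4.3.3 with edgeR 4.0.16 (robust quasi-likelihood test, TMM, filterByExpr with a minimum count of 10, 2-sided, Benjamini-Hochberg adjustment over all tested genes, called at an adjusted p under 0.05), KO with control within each line and, in a fit of all 12 libraries, control with control and the interaction of line and knockout (EMT6 difference minus 4T1 difference). The SE of a log2 difference is its size over the square root of F. Scripts were tested on simulated counts.

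The members and gene lists were chosen with earlier results of these data known. Named from each list and line were the 2 called genes of lowest adjusted p, and per RNA the nearest tested gene on each side. Neat1, Malat1 and Gas5 also had their 3 closest genes by correlation named. Of 167 listed symbols 1 was not found, and Snhg4, listed on 2 lines of the tables, was left out. The results of some genes that these rules take are not reported here. Alternatives were DESeq2 1.42.0, DESeq2 size factors, total counts, no filter, a replicate block and leaving out each library. Replicate libraries differed beyond counting noise (chi-square of 2.36 to 10.9 per degree of freedom). Depth sets counting error only, and an exact permutation test of 3 against 3 cannot go below 0.1. All libraries carry the same batch label.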

Additional observations from a re-analysis of the deposited data

Results flagged for a closer look

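Neat1 differed in opposite directions in the lines, by a log2 of 2.09 in 4T1 KO cells and -1.63 in EMT6 KO cells, and Snhg12 by 0.43 and -0.41: every KO library lay above every control in one line and below in the other. The difference between the lines was not tested for either, since the knockout contrasts chose them, and for Snhg12 the EMT6 gap was a ratio of 0.992.

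The remaining results are genes named around these RNAs whose knockout difference was not the same in the lines by the interaction test (EMT6 difference minus 4T1 difference, log2). It called 24 of 27 named list genes and 8 of 11 other named neighbours (edgeR, adjusted p from 8.69e-15 to 0.0176), and 53.4% of all genes. The list genes were named for the lowest adjusted p in the knockout contrasts that make up the interaction, so their share cannot be set against that of all genes. All 4 named snoRNA hosts were lower on this scale: Zfas1 at -0.89, Snhg8 at -0.69, Snhg15 at -1.11 and Snhg17 at -1.33. Of the lncRNAs, Firre was at -0.87 and Dleu2 at -0.99, against Norad at 0.51 and Morrbid at 1.04. The snoRNA particle proteins Nop56 and Nop58 were at 0.50 and 0.58.

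Among proteins of nuclear bodies, Hnrnpm was at 0.81, Rbmx at 2.39, Clk1 at 0.30, Srsf1 at 0.66, Srsf2 at 1.05 and Clk4 at -0.90. The call of Clk1 was lost with total counts (adjusted p = 0.105) and without 4T1 control 3 or EMT6 control 2. Of the decay factors, Smg6 was at 0.29, Eif4a3 at 0.28 and Rbm8a at -0.36. The 5′ TOP genes Npm1 and Eif4b were at 0.25 and -0.81, and the imprinted-cluster genes Phlda2 at -1.50, Cd81 at -0.38 and Osbpl5 at 0.46.

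Among neighbours, Slc3a2 was at -1.22, Rc3h1 at 1.05, Frmd8 at 0.44, Usp46 at 0.78, Scfd2 at 1.25, Taf12 at 0.31 and Wdr74 at 0.33. The calls of Taf12 and Wdr74 were lost with total counts (adjusted p = 0.072 and 0.0826), and that of Wdr74 also without EMT6 KO 2, EMT6 control 1 or EMT6 control 2. Slc22a18 was at -3.66, but in EMT6 it had 0 counts in 2 KO libraries and 0.101 CPM in the other, against 0.280 to 1.31 CPM in controls, so that fitted value depends on the prior count.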

How the results depend on the processing

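Of 385 values recomputed under alternatives (counts of called genes and the differences of the 7 expressed RNAs), 365 counted as kept, 13 lost and 7 gained a call, and 0 were reversed. A difference between control cells was kept if its direction and side of the threshold held, and a knockout difference if it moved by under 1 SD of the libraries. Counts of called genes were kept within a wide fold range, which let genes called lower in 4T1 KO cells go from 3864 to 2956 with total counts. The knockout differences of the RNAs carry no test, so a call could be lost or gained by an RNA only in the contrast of the control cells, which holds the 20, and 13 of them are Kcnq1ot1, whose adjusted p was 0.0568 with DESeq2, 0.0572 with total counts and 0.0878 with the replicate block, and 0.00122 to 0.191 on leaving out single libraries. In that contrast the adjusted p of Neat1 was 0.0392 with DESeq2 and 0.0185 to 0.256 on leaving out libraries, and that of Snhg1 0.0338 with no filter and 0.0014 to 0.492. All 154 alternatives to the knockout differences lay within 1 SD, and 4, all of Dancr in 4T1, had the other sign (Dancr ranged from -0.15 to 0.05 over its alternatives). Leaving out 1 of 3 libraries can hardly move a difference by that SD, so these alternatives had little room to fail. Some still ranged widely: on leaving out single libraries the EMT6 difference was -0.87 to -0.17 for Malat1 and -0.55 to -0.09 for Gas5.

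Scaling by total counts alone raised the share of called genes that were higher in 4T1 KO cells to 61.1%, against 49.1% with TMM, with a median over all genes of 0.08, and lowered that of the interaction to 42.1%, against 50.2%. With no filter that median was 0.12 in 4T1 and -0.13 for the interaction. Under the settings that keep all libraries, the 4T1 differences were 2.21 to 2.32 for Malat1, 2.06 to 2.17 for Neat1 and 1.63 to 1.74 for Kcnq1ot1.

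With the replicate number as a block, 3746 genes were called higher and 3930 lower in 4T1 (3725 and 3864 without it), and 3400 higher and 3430 lower in EMT6 (3591 and 3633 without it). Deviations of same-numbered libraries correlated at -0.02, 0.01 and 0.04 in 4T1 and at -0.14, -0.04 and -0.14 in EMT6. These values showed no sign of pairing by number, but they cannot tell whether same-numbered libraries were handled together. Not every library correlated best with its own number.

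Depth limits H19 and Meg3, at 6 counts a library or fewer.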
